A study of Homo sapiens with 8 samples.

Results

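miR-103a-3p and miR-107 are a pair of microRNAs (miRNAs) encoded in introns of the PANK genes, and they were followed here in the human prostate cancer cell line PC-3 after treatment with luteolin, gefitinib or both. The pair was chosen by name, and its 2 members were found among the 1887 human miRNAs on the arrays. The 4 groups received the solvent DMSO alone, luteolin, gefitinib, or luteolin plus gefitinib, each drug at 60 µM and dissolved in DMSO, and total RNA was taken 24 h later. Luteolin is a plant flavonoid, and gefitinib inhibits the kinase of the epidermal growth factor receptor. Each group had 2 arrays, labelled as biological replicates with no mention of separate cultures, so the p-values measure the spread between these arrays in a single cell line. The measurement was the total signal of a miRNA on a 1-colour Agilent array, in arbitrary units of fluorescence.

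A miRNA is cut from a hairpin precursor, first by Drosha in the nucleus and then by Dicer, the product of DICER1, in the cytoplasm. Its seed, the bases near the 5′ end, pairs with messenger RNAs and lowers their translation or stability. miR-103 and miR-107 are known to target the DICER1 messenger RNA, so that they act on the enzyme that makes them, and they have also been studied in insulin sensitivity and in metastasis. Their host genes code for pantothenate kinases, which carry out the first step of coenzyme A synthesis. No mRNA or protein was measured on these arrays, so neither DICER1 nor the PANK genes have a value here.

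The mature sequences are shown first because they set what the arrays can tell apart. In the RefSeq sequences (GRCh38.p14), bases 2 to 8, the seed, are in capitals.
hsa-miR-103a-3p: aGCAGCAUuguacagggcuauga
hsa-miR-107: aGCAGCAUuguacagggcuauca
Both are 23 bases long and 22 bases are identical. The only difference is G22C, in which miR-103a-3p has the first base and miR-107 the second, at position 22 counted from the 5′ end. Among the 1580 array miRNAs whose sequence was matched by name, the seed GCAGCAU occurred in these 2 only. The arrays' probe sequences are not given in the files used here, and how far the probes of one member bind the other was not tested.

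The pair comes from 3 hairpins, which are shown with the mature 3′ arm in capitals.
MIR103A1: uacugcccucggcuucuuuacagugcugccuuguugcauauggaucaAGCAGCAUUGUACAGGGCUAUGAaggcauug
MIR103A2: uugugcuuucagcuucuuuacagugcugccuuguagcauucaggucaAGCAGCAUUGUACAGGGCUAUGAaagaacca
MIR107: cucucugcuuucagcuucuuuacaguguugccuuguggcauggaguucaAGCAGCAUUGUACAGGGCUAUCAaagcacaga
MIR103A1 lies at chr5:168560896-168560973 on the minus strand within PANK3, and MIR103A2 at chr20:3917494-3917571 on the plus strand within PANK2. Both give the same mature miR-103a-3p, so its signal is the sum over the 2 genes. MIR107 lies at chr10:89592747-89592827 on the minus strand within PANK1. Each of the 3 hairpins is on the strand of its host gene.

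The other products of these genes on the array were not detected. miR-103a-2-5p, the opposite arm of MIR103A2, was detected by the scanner software on 0 of 8 arrays. miR-103b is read from the opposite strand of the miR-103a genes, and all its 23 bases (ucauagcccuguacaaugcugcu) are antisense to miR-103a-3p. It was also detected on 0 of 8 arrays, whereas miR-103a-3p and miR-107 were each detected on all 8. Each member had 30 spots on an array, made of 2 probes with 15 spots each. In every probe and array all 15 spots were well above background, none was saturated, and the signal varied between the spots by a coefficient of variation of 2.78% to 8.94%. The software flagged 7 of the 480 spots as outliers, all of miR-107, and 6 of these were of one probe on the arrays with gefitinib. The spots of that probe varied by 6.05% to 8.94% with gefitinib and by 2.78% to 4.38% without.

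Across the series, the software detected 395 to 481 miRNAs per array. The 75th percentile of signal, taken over the 365 miRNAs detected on all 8 arrays, ranged from 60.5 to 92.7, and each array was divided by it (rescaled to the geometric mean of the percentiles) before groups were compared. The replicates of DMSO and luteolin stood further apart than those of the other groups, with 21 and 41 miRNAs differing by more than 2-fold between replicates, against 2 with gefitinib and 12 with both drugs. Of the markers of epithelial cells, miR-200a-3p, miR-200b-3p and miR-429 were detected on all 8 arrays and miR-205-5p on 6, while miR-200c-3p, miR-141-3p and miR-203a were detected on none. None of the muscle and liver markers was detected, and of 4 blood cell markers 1 was detected, miR-142-3p on 1 luteolin array. Of the 2 neuronal markers miR-124-3p was detected on none and miR-9-5p on all 8.

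The level of miR-103a-3p hardly varied with treatment. Its scaled signal was 429 and 556 in DMSO, 469 and 564 with luteolin, 471 and 484 with gefitinib, and 469 and 464 with both drugs (replicates 1 and 2). Replicate 2 of DMSO and of luteolin were the high arrays, and the values of every drug group overlapped or lay within those of DMSO. The group means were 493 ± 90.1, 516 ± 67.6, 478 ± 9.19 and 467 ± 3.30 in the same order (SD, n = 2). The 2 DMSO arrays differed by 1.30-fold, more than any 2 group means of this miRNA.

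miR-107 had the same pattern. Its scaled signal was 307 and 413 in DMSO, 319 and 427 with luteolin, 341 and 359 with gefitinib, and 329 and 360 with both drugs. As for miR-103a-3p, the DMSO and luteolin replicates lay far apart and the gefitinib arrays sat between the DMSO arrays. The group means were 360 ± 74.6, 373 ± 76.1, 350 ± 13 and 345 ± 21.9 (SD, n = 2), and the DMSO arrays differed by 1.34-fold. For both members the order of the means was luteolin, DMSO, gefitinib and both drugs, and no difference between neighbours in this order passed the limma test. The arrays of neighbouring groups overlapped, except that both gefitinib arrays of miR-103a-3p lay above both arrays with both drugs, by group means of 478 and 467. The error that the scanner software assigned to a single signal was about 7.2% for miR-103a-3p and 7.7% for miR-107.

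**Figure D1:**
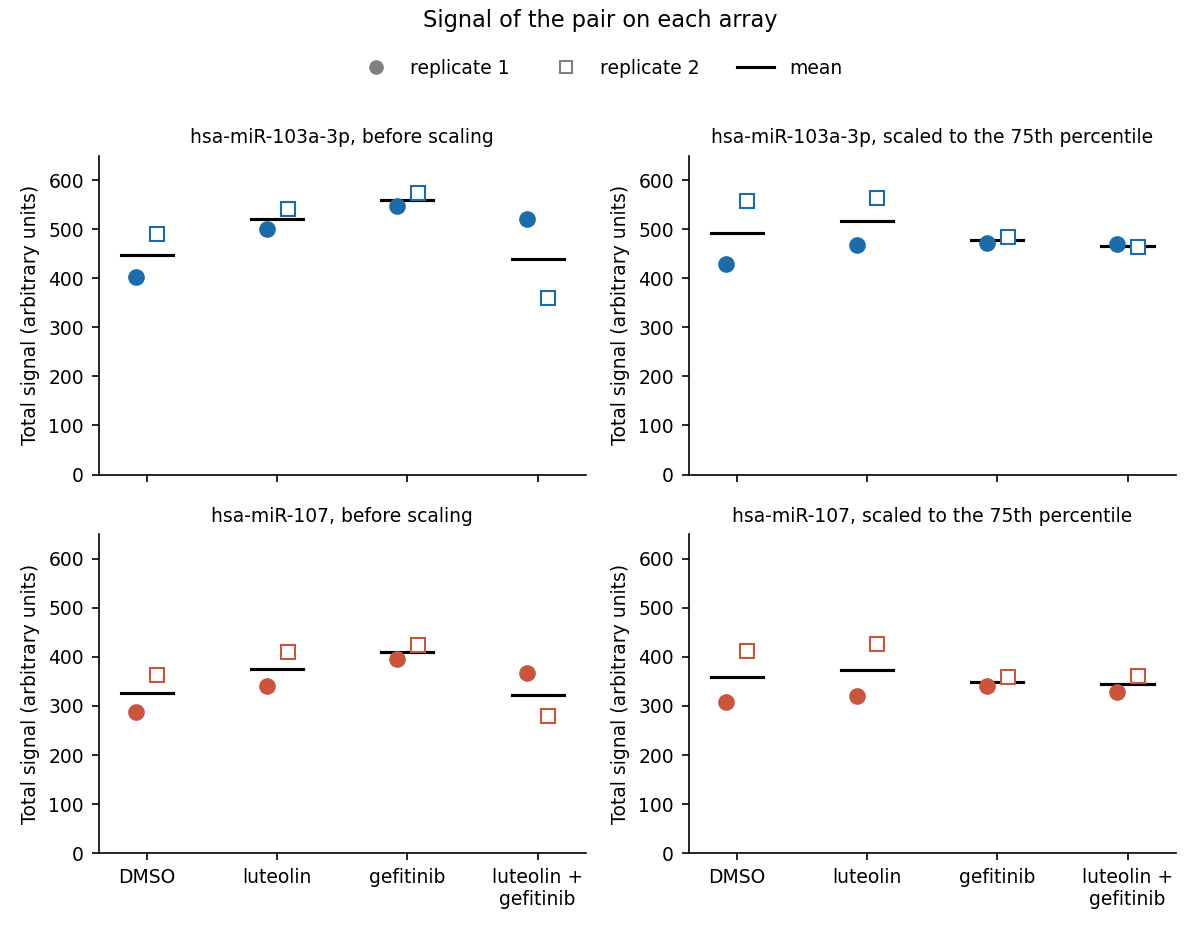
Total signal of miR-103a-3p (upper panels) and miR-107 (lower panels) on each of the 8 arrays, before scaling (left) and after scaling to the 75th percentile (right), in arbitrary units with filled circles for replicate 1, open squares for replicate 2 and a line for the mean of 2 arrays. After scaling, the gefitinib arrays lie between the 2 DMSO arrays for both miRNAs, and before scaling they lie above them.

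Before scaling, the picture for gefitinib differed. The unscaled signal of miR-103a-3p was 403 and 490.0 in DMSO, 499.8 and 541 with luteolin, 547 and 573 with gefitinib, and 521 and 359 with both drugs. That of miR-107 was 288 and 363 in DMSO, 341 and 409 with luteolin, 396 and 425 with gefitinib, and 366 and 279 with both drugs. Thus both gefitinib arrays were above both DMSO arrays for both members, as they were for 49.4% of the 480 miRNAs tested. Both luteolin arrays were above both DMSO arrays for miR-103a-3p only, against 17.3% of the miRNAs tested, and with both drugs neither member had this pattern, against 16.9%. After scaling neither member had both arrays of a drug group above both DMSO arrays, and the share among all tested miRNAs was 9.17% with luteolin, 21.5% with gefitinib and 19.6% with both drugs.

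Neither drug changed the pair past the test. Differences were tested with limma over 480 miRNAs, with p-values adjusted by Benjamini-Hochberg and a miRNA called at an adjusted p under 0.05. With luteolin against DMSO, miR-103a-3p had a log2 fold change of 0.07 (SE 0.18, 95% interval -0.37 to 0.52, limma adjusted p = 0.981) and miR-107 one of 0.05 (SE 0.22, interval -0.48 to 0.59, adjusted p = 1). The comparison called neither of the 2 members, and 2.08% of the miRNAs tested. With gefitinib against DMSO the values were -0.03 (interval -0.48 to 0.41, limma adjusted p = 0.938) and -0.03 (interval -0.56 to 0.51, adjusted p = 0.961), with neither member among the 12.1% that were called. The number called changed when an array was left out, falling without some arrays and rising without others. Each such fit leaves a lone array in a group. Larger absolute log2 fold changes were seen with gefitinib in 94.2% of the tested miRNAs than in miR-103a-3p and in 95.8% than in miR-107, beside a median absolute log2 fold change of 0.35 over all 480.

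With both drugs against DMSO the log2 fold changes were -0.07 for miR-103a-3p (interval -0.51 to 0.38, limma adjusted p = 0.872) and -0.05 for miR-107 (interval -0.58 to 0.49, adjusted p = 0.933), and again neither was among the 12.1% called. The number called here also fell without some arrays and rose without others. Over these 3 comparisons with DMSO, the 95% intervals of the 2 members ran from 0.667-fold to 1.51-fold on this scaling. They therefore did not reach a log2 change of 1 in either direction, but they left room for smaller changes, and a p that misses the threshold does not show equal levels.

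Adding gefitinib to luteolin gave -0.14 for miR-103a-3p and -0.10 for miR-107 (limma adjusted p = 0.896 and 1), where 1.88% of the miRNAs were called. Adding luteolin to gefitinib gave -0.03 and -0.02 (adjusted p = 0.999 and 1), where 4.58% were called. Over the 4 arrays with gefitinib against the 4 without, the log2 difference was -0.09 for miR-103a-3p (interval -0.40 to 0.23, limma adjusted p = 0.738) and -0.06 for miR-107 (interval -0.44 to 0.32, adjusted p = 0.858), the narrowest intervals of the design together with those for luteolin. Neither member was among the 16.7% called there. The same comparison for luteolin gave 0.02 for both members (limma adjusted p = 0.964 and 0.973), with 6.46% of the miRNAs called. The interaction, the effect of both drugs less the sum of the single effects, was -0.11 for miR-103a-3p and -0.07 for miR-107 (limma adjusted p = 0.986 for both), with 3.33% called.

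**Figure D2:**
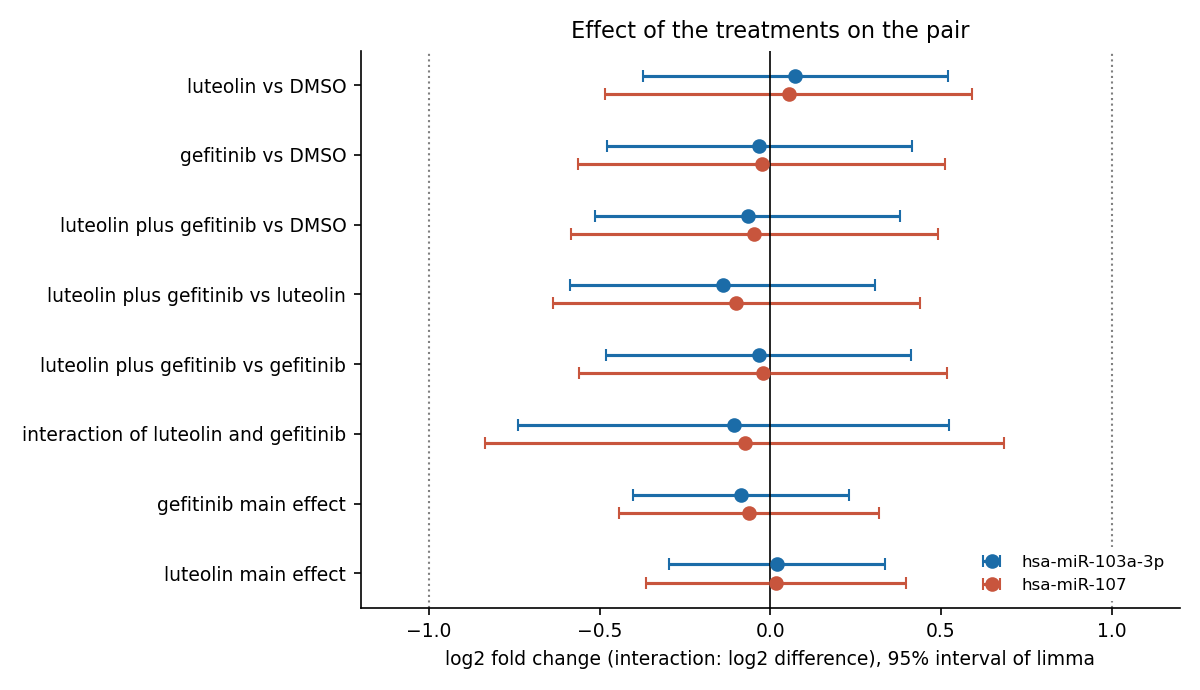
Log2 fold change of miR-103a-3p and miR-107 in the 8 comparisons, with points for the limma estimate, bars for its 95% interval and dotted lines at -1 and 1. All 16 intervals include 0 and none reaches a dotted line.

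The direction of these small differences changed with single arrays. Against the DMSO array of the same replicate number, replicate 1 of luteolin, of gefitinib and of both drugs was higher by 0.13, 0.14 and 0.13 for miR-103a-3p and by 0.06, 0.15 and 0.10 for miR-107 on the log2 scale. In replicate 2 the same log2 differences were 0.02, -0.20 and -0.26 for miR-103a-3p and 0.05, -0.20 and -0.20 for miR-107. Gefitinib and the combination thus lay above DMSO in replicate 1 and below it in replicate 2. Leaving out each array in turn moved the log2 fold change with gefitinib from -0.22 to 0.15 for miR-103a-3p and from -0.24 to 0.19 for miR-107, the adjusted p staying above 0.05 throughout.

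The direction also depended on the scaling. Without scaling, gefitinib against DMSO gave a log2 fold change of 0.33 for miR-103a-3p and 0.34 for miR-107. The median of all 480 miRNAs was then at 0.26. Scaled to the 5 human small-RNA control probes the values were 0.35 and 0.36, with the median of all miRNAs at 0.27. Scaled to the 4 spike-in control probes they were 0.47 and 0.48, with the median at 0.40. These settings apply a single factor per array, or none. Relative to the main scaling they therefore had to shift every miRNA above the floor by the same amount. Neither member was called (lowest adjusted p over the alternatives that left out no replicate, 0.258 for miR-103a-3p and 0.351 for miR-107). Set against the median miRNA, which was at -0.10 with gefitinib on the main scaling, both members lay slightly above it, whereas under quantile normalization miR-107 was at -0.11, below the median of -0.10. The amount of miRNA per cell was not measured, so a change shared by all miRNAs cannot be told apart from one in the RNA or labelling of an array.

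**Figure D3:**
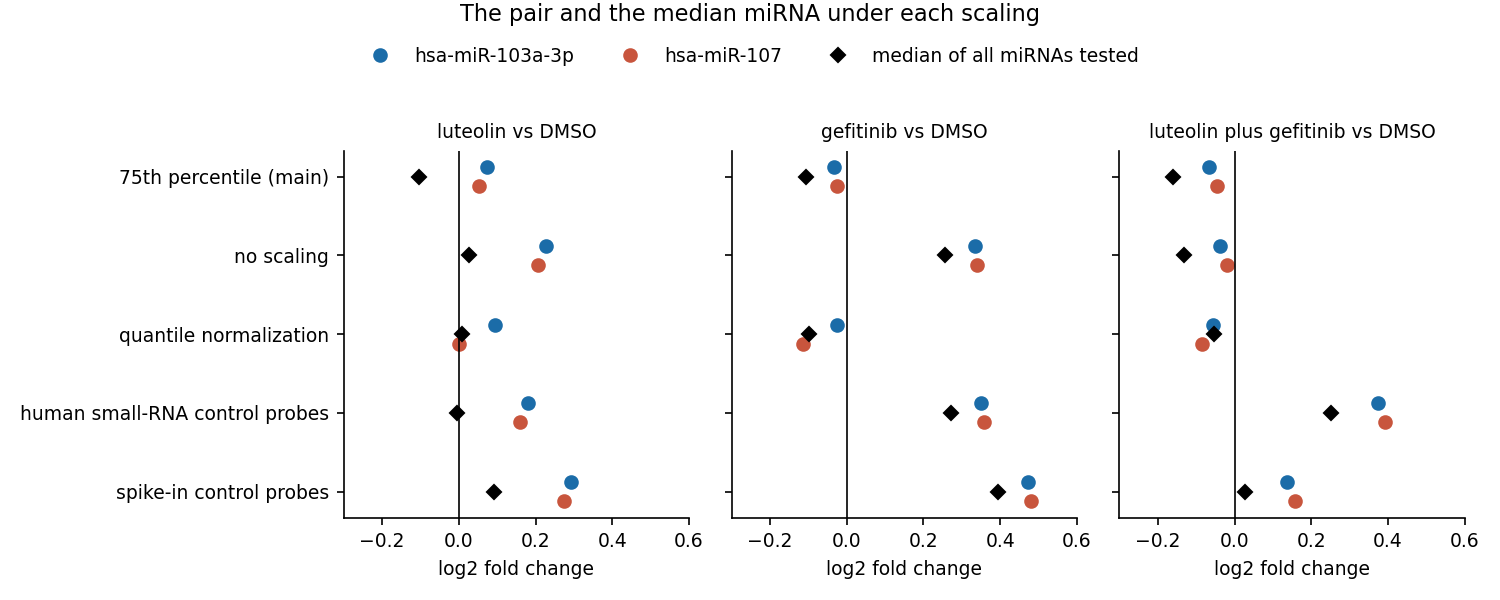
Log2 fold change against DMSO of miR-103a-3p, miR-107 and the median of all 480 miRNAs tested (black diamonds) under 4 scalings of the arrays and without scaling, one panel per drug group. With gefitinib the pair was at -0.03 on the main scaling and at 0.47 and 0.48 on the spike-in probes. A scaling by a single factor per array shifts all miRNAs above the floor alike.

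The pair varied little between arrays beside other miRNAs. Over the 8 arrays the SD of the log2 scaled signal was 0.136 for miR-103a-3p and 0.169 for miR-107, and the median over the 365 miRNAs detected on all arrays was 0.272. An SD below that of miR-103a-3p was found in 5.21% of these miRNAs, and one below that of miR-107 in 15.6%. Within groups the SD was 0.164 and 0.218, close to the median of 0.214. The highest array exceeded the lowest by 1.32-fold for miR-103a-3p and by 1.39-fold for miR-107. Without scaling the span was 1.60-fold and 1.53-fold.

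miR-103a-3p and miR-107 moved together from array to array. The ratio of miR-107 to miR-103a-3p signal within an array does not depend on the scaling, and only its change between arrays was read, since signals of different probes have no common scale. It ranged from 0.682 to 0.776 with a median of 0.732, a span of 1.14-fold. The mean ratio was 0.736 ± 0.0313 on the arrays with gefitinib and 0.724 ± 0.0329 on those without (SD, n = 4 each). This log2 difference of 0.02 had p = 0.571 in a two-sided exact permutation test over arrays, and the difference for luteolin was smaller still, with an exact permutation p = 0.914 (both 0.914 after Benjamini-Hochberg adjustment over the 2 tests). The smallest p that this design allows is 0.0286. This test takes no account of the replicate number, by which the ratio divided as described next.

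The ratio divided the arrays by replicate number. The 4 arrays of replicate 1 had ratios of 0.716, 0.682, 0.723 and 0.703 (DMSO, luteolin, gefitinib and both drugs), and the 4 arrays of replicate 2 had 0.741, 0.757, 0.742 and 0.776. No array of replicate 2 was as low as any of replicate 1. Within a replicate number the log2 ratio with gefitinib less that with DMSO was 0.015 in replicate 1 and 0.00030 in replicate 2, and that with both drugs less that with luteolin was 0.043 and 0.036. All 4 of these differences were above 0, and they were not tested. The 2 probes of miR-103a-3p showed the same division, their ratio being 1.44 to 1.46 on the arrays of replicate 1 and 1.51 to 1.54 on those of replicate 2. For the 2 probes of miR-107 the ratio did not divide the arrays by replicate number, with 0.395 to 0.412 in replicate 1 and 0.395 to 0.410 in replicate 2. It was 0.406 to 0.412 on the arrays with gefitinib and 0.395 to 0.404 on those without. This gap rested on the probe for which 6 spots were flagged with gefitinib and none without, and from the mean of all 15 spots the ratios overlapped, with 0.397 to 0.406 against 0.395 to 0.404. From the mean of all spots the ratio of miR-107 to miR-103a-3p still divided by replicate number, with 0.682 to 0.720 in replicate 1 and 0.737 to 0.771 in replicate 2. These divisions were seen in the data and were not tested. All 8 arrays were on 1 slide and read in 1 scan, and the labels do not say what the replicates share.

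**Figure D4:**
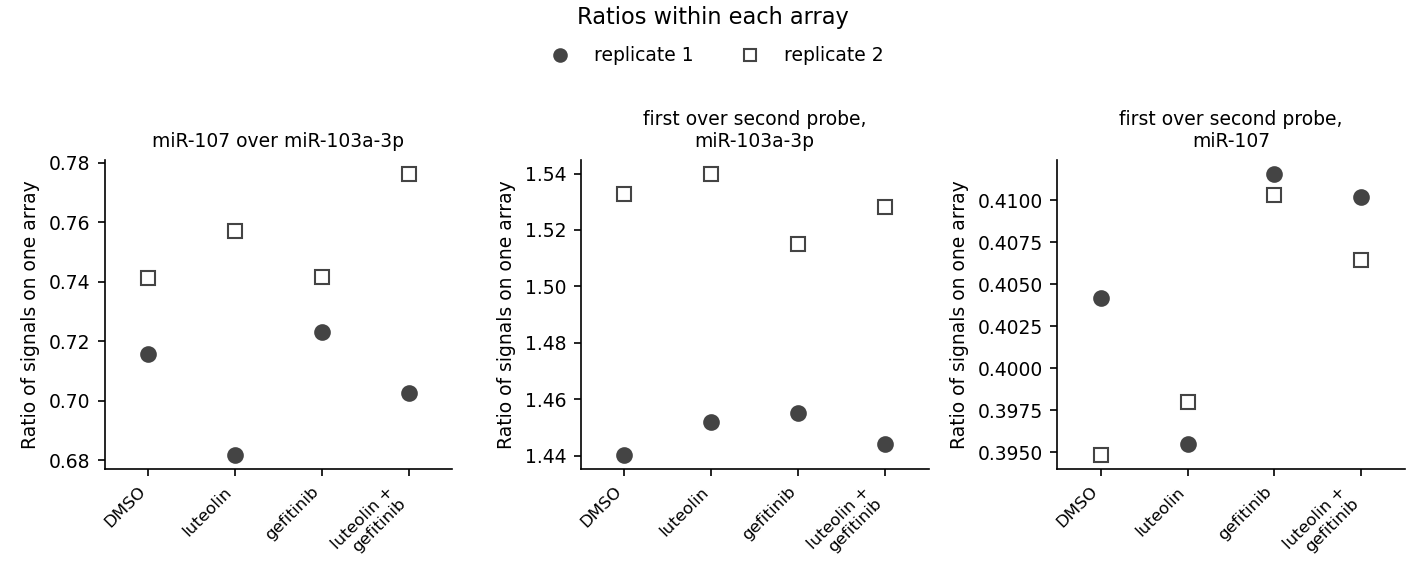
Ratios of signals within each array, by treatment, with filled circles for replicate 1 and open squares for replicate 2: miR-107 over miR-103a-3p (left), and one probe over the other for miR-103a-3p (middle) and for miR-107 (right). The axes do not start at 0. In the left and middle panels every replicate 2 array lies above every replicate 1 array, with 0.741 to 0.776 against 0.682 to 0.723 on the left.

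The 2 probes of each miRNA were also read apart. With gefitinib against DMSO the 2 probes of miR-103a-3p had log2 fold changes of -0.03 and -0.03, and those of miR-107 had 0.0037 and -0.037. The 0.0037 was of the probe with the flagged spots, and from the mean of all 15 spots the 2 probes of miR-107 had -0.0096 and -0.024. With luteolin the probes of miR-103a-3p had 0.08 and 0.07, and those of miR-107 had 0.05 and 0.06. With both drugs the values were -0.07 and -0.07 for miR-103a-3p and -0.024 and -0.056 for miR-107.

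As a description of likeness, the SD over the 8 arrays of the log2 signal ratio to a member was taken for the 364 other miRNAs detected on all arrays. The miRNAs most like miR-103a-3p were miR-25-3p (0.044), miR-152 (0.047), miR-100-5p (0.055), miR-324-5p (0.059) and, in rank 5, miR-107 (0.060), beside a median of 0.282. Those most like miR-107 were miR-21-5p (0.026), miR-100-5p (0.041), miR-25-3p (0.057), miR-125b-5p (0.059) and miR-148b-3p (0.060), followed in rank 6 by miR-103a-3p, beside a median of 0.303. The 7 miRNAs other than the pair in these lists had log2 fold changes of -0.16 to 0.14 against DMSO. Having been picked for following the pair over these arrays, they had to resemble it in these values too, so nothing is read from them. All points share the same 8 arrays and their scaling.

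The miR-15/16 family has a seed offset by 1 base from that of the pair. Bases 2 to 8 of 6 array miRNAs, miR-15a-5p, miR-15b-5p, miR-16-5p, miR-195-5p, miR-424-5p and miR-497-5p, equal bases 1 to 7 of miR-103a-3p, AGCAGCA, and miR-503-5p and miR-646 share the first 6 of these. The family is known for repressing cyclins and BCL2. miR-16-5p and miR-503-5p are shown with bases 2 to 8 in capitals, to be set beside the pair above.
hsa-miR-16-5p: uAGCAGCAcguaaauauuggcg
hsa-miR-503-5p: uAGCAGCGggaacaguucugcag
Of the 8, miR-646 was detected on 0 of 8 arrays and the other 7 on all 8. The median log2 fold change of these 7 was -0.12 with luteolin, -0.13 with gefitinib and -0.10 with both drugs, against -0.10, -0.10 and -0.16 over all miRNAs tested. One of the 7 was called in each of these comparisons, miR-503-5p every time, beside 2.08%, 12.1% and 12.1% of all miRNAs tested.

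miR-503-5p fell in each drug group. Its scaled signal was 9.78 and 10.8 in DMSO, 1.11 and 1.45 with luteolin, 1.52 and 1.51 with gefitinib, and 1.65 and 1.74 with both drugs. All 6 drug arrays lay below both DMSO arrays, a pattern whose share among all miRNAs tested was not counted. The log2 fold change was -3.02 with luteolin (SE 0.17, limma adjusted p = 0.0018), -2.76 with gefitinib (adjusted p = 0.0015) and -2.60 with both drugs (adjusted p = 0.0012), and the interaction was 3.18 (adjusted p = 0.0032). The floor set on the scaled signal was 0.609. A further fall with luteolin as large as that without gefitinib would have ended below it. Its full size could therefore not have been recorded. The arrays with both drugs lay above this floor and above the gefitinib arrays. How far the lower limit of the measurement shapes the interaction was not tested. The 6 miRNAs with the full offset seed had log2 fold changes of -0.47 to 0.16 with gefitinib, and none was called in any of the 8 comparisons, in which 1.88% to 16.7% of all miRNAs were called, so that a count of 0 in 6 does not set them apart. With luteolin the call of miR-503-5p was lost under quantile normalization (limma adjusted p = 0.053) and with only the arrays compared (0.153). It was also lost with the methods' t-test after Benjamini-Hochberg adjustment (0.451), an adjustment the study does not name. The log2 fold changes of miR-503-5p in these settings were -2.99 to -3.02. With normexp background correction (offset 50) and quantile normalization together its log2 fold changes shrank to -0.28, -0.28 and -0.26 with luteolin, gefitinib and both drugs, and with a pseudocount of 16 to -0.61, -0.59 and -0.57, all still called.

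The other miRNAs reported to target DICER1 were read from a list of 10, namely let-7a-5p to let-7g-5p and let-7i-5p, miR-98-5p and miR-630. All 10 were detected on all 8 arrays. The let-7 family and miR-98-5p share a seed and are known for lowering RAS and MYC. None of these 9 was called in any of the 8 comparisons, in which 1.88% to 16.7% of all miRNAs were called, so that a count of 0 in 9 does not set them apart. Their log2 fold changes ran from -0.03 to 0.28 with luteolin, from -0.02 to 0.12 with gefitinib and from -0.03 to 0.30 with both drugs. They were above 0 in 8 of the 9 with luteolin, 6 with gefitinib and 8 with both drugs. The share above 0 was not counted over all miRNAs tested. The 9 were read on the same 8 arrays, so they do not count as separate observations. The median over the 10 listed miRNAs was 0.10, 0.05 and 0.13 in these comparisons, against -0.10, -0.10 and -0.16 over all miRNAs tested.

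miR-630, the remaining miRNA of the list, rose with gefitinib. It was a miRNA the study followed up from these same arrays, so its direction here is no independent evidence. Its scaled signal was 32.0 and 18.6 in DMSO, 40.2 and 24.8 with luteolin, 112 and 121 with gefitinib, and 79.4 and 111 with both drugs. All 4 arrays with gefitinib lay above all 4 without it, as for 8.96% of the miRNAs tested. The log2 fold change was 2.26 with gefitinib (SE 0.36, limma adjusted p = 0.019) and 1.95 with both drugs (adjusted p = 0.027), and 0.37 with luteolin (adjusted p = 0.901). The call with gefitinib was lost without gefitinib replicate 1 (adjusted p = 0.155), gefitinib replicate 2 (0.154) or DMSO replicate 2 (0.113), and that with both drugs was lost without any one of 5 arrays (0.0575 to 0.143), namely those 3 and both arrays of the combination. Both calls were also lost with no filter on detection, and that with both drugs with only the arrays compared (limma adjusted p = 0.111). Both calls were lost too with the methods' t-test after Benjamini-Hochberg adjustment. The study's own criterion in that test, a p under 0.05 with a minimum fold change and no adjustment named, was not applied here.

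**Figure D5:**
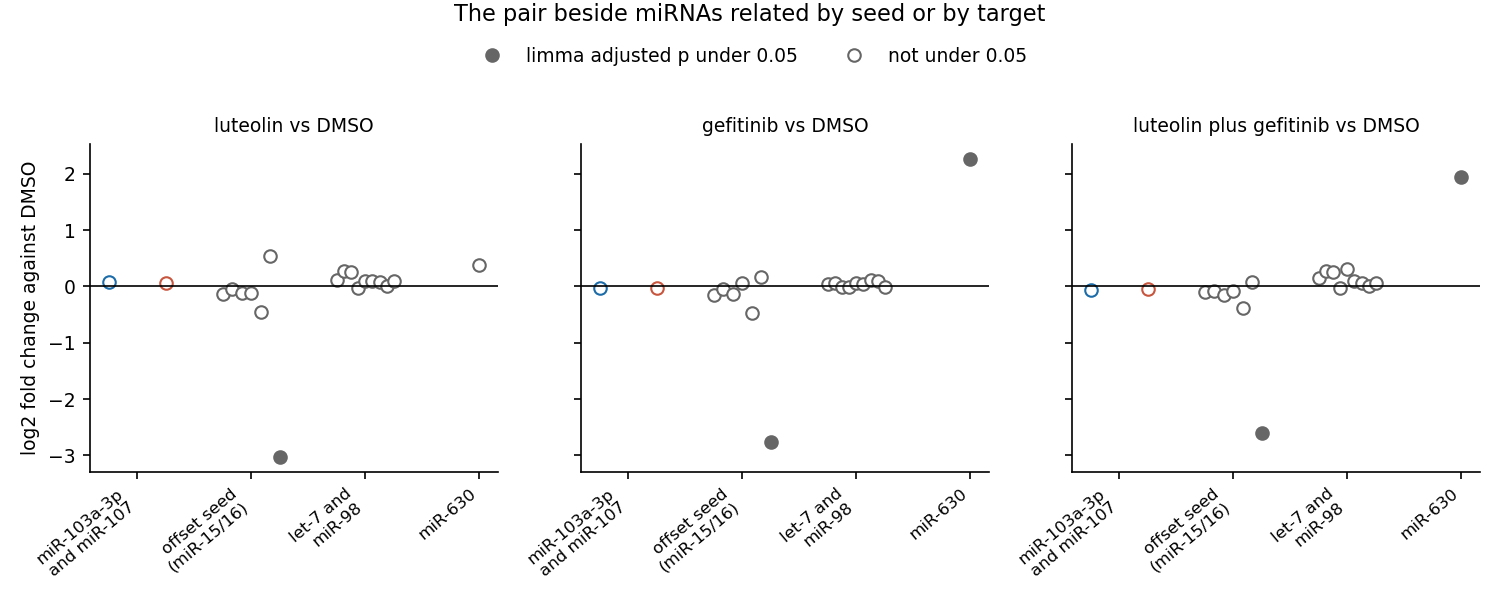
Log2 fold change against DMSO of miR-103a-3p and miR-107 (blue and red) beside the 7 detected miRNAs with the offset seed, the 9 of the let-7 family with miR-98-5p, and miR-630, one panel per drug group. Filled points have a limma adjusted p under 0.05. The lowest and highest values of the pair over the panels are -0.07 and 0.07, while miR-503-5p lies between -3.02 and -2.60 and miR-630 at 2.26 with gefitinib.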

How the data were processed

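The authors hybridised Cy3-labelled total RNA to 8 Agilent 1-colour miRNA arrays and extracted each with Agilent Feature Extraction (version 10.7.3). The authors deposited intensity on a linear scale, less its background and not normalized across arrays. The scanner software gives each miRNA a total signal, set to 0.1 where undetected. The deposited series table holds the intensity of single spots, within 0.5% of the processed signal of the scanner files. Samples were grouped by the treatment in the labels, and none was left out.

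Total signal was divided by the array's 75th percentile over the 365 miRNAs detected on all 8 arrays, floored at 0.609 and taken to log2. limma (3.58.1, R 4.3.3) was fitted over all 4 groups to the 480 miRNAs that were detected in both replicates of 1 or more groups, with 4 residual and 1.66 prior degrees of freedom, and was tested on simulated data. The number of arrays limits the precision. The miRNAs named are the pair, those of fixed lists that were called, and the 5 most like each member. The members and lists were chosen with earlier results of these data known. Alternatives to the scaling, background correction, filter, floor, test, replicate block and each array left out were run. Sequences and positions are from RefSeq (GRCh38.p14).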

Additional observations from a re-analysis of the deposited data

Results flagged for a closer look

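For miR-503-5p, a miRNA with a seed related to that of the pair, the measured effect of luteolin differed between the arrays without and with gefitinib, by a limma interaction of 3.18 on the log2 scale (adjusted p = 0.0032). Luteolin gave -3.02 without gefitinib and 0.16 with it. With gefitinib its scaled signal was already 1.52 and 1.51, and a further fall of that size would have ended below the floor of 0.609. With both drugs the scaled signal was 1.65 and 1.74, above that floor. How far the lower limit of the measurement shapes the interaction was not tested. The interaction was 0.62 with a pseudocount of 16 and 0.30 with normexp and quantile normalization. Without any one of the 8 arrays the interaction remained called, and under quantile normalization it was not (adjusted p = 0.085).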

How the results depend on the processing

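Neither member was called under any alternative that was run for a comparison (the interaction was not fitted with only the arrays compared or the methods' t-test, nor the main effects with only the arrays compared), and where a value changed sign it stayed under the threshold on both sides. Values are log2, miR-103a-3p before miR-107. Without scaling, gefitinib against DMSO was 0.33 and 0.34, the gefitinib main effect 0.034 and 0.058 and the luteolin main effect -0.073 and -0.077. On the human small-RNA control probes, gefitinib against DMSO was 0.35 and 0.36, both drugs against DMSO 0.37 and 0.39, both against luteolin 0.19 and 0.23, both against gefitinib 0.023 and 0.036, and the gefitinib main effect 0.27 and 0.30. On the spike-in probes, gefitinib against DMSO was 0.47 and 0.48, both drugs against DMSO 0.14 and 0.16, and the main effects of gefitinib 0.16 and 0.18 and of luteolin -0.021 and -0.024. Under quantile normalization miR-107 had 0.029 for both drugs against gefitinib and 0.027 for the interaction. With normexp and quantile, gefitinib against DMSO was 0.016 and 0.013, and the luteolin main effect of miR-107 was -0.012. The control-probe and unscaled values differ from the main ones by a single factor per array, which shifts all miRNAs above the floor alike. The cause of the other sign changes was not tested.

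Leaving out each array in turn gave -0.11 to 0.26 and -0.16 to 0.27 for luteolin against DMSO, -0.22 to 0.15 and -0.24 to 0.19 for gefitinib, -0.25 to 0.12 and -0.26 to 0.17 for both drugs, -0.27 to -0.0061 and -0.31 to 0.11 for both against luteolin, -0.053 to -0.014 and -0.086 to 0.043 for both against gefitinib, -0.29 to 0.080 and -0.29 to 0.14 for the interaction, -0.18 to 0.0073 and -0.17 to 0.044 for the gefitinib main effect, and -0.074 to 0.11 and -0.090 to 0.12 for the luteolin main effect. A lone array was then assumed to vary like the other groups. The log2 ratio of miR-107 to miR-103a-3p with gefitinib less that without was -0.0049 to 0.046.

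Same-numbered replicates deviated together for DMSO and luteolin (correlation of replicate differences 0.91). The correlation was lower for both drugs with DMSO (0.41) and with luteolin (0.46). With the gefitinib group the correlations ran from -0.13 to 0.07. As not every pair of groups deviated together, the numbers were not taken to pair the samples. With the replicate number as a block the log2 fold changes were as before, -0.03 for both members with gefitinib (adjusted p = 0.905 and 0.926), neither member was called, and the number of miRNAs called moved by over 1.5 times for both drugs against luteolin only, from 9 to 5. It went from 80 to 92 for the gefitinib main effect, 58 to 62 for both drugs, 22 to 24 for both against gefitinib, 10 to 9 for luteolin and 16 to 12 for the interaction, and did not change for gefitinib (58) and the luteolin main effect (31). Over all alternatives, the number of miRNAs called ranged from 0 to 18 with luteolin (10 as reported), 15 to 75 with gefitinib (58), 12 to 101 with both drugs (58), 0 to 42 for both against luteolin (9), 7 to 41 for both against gefitinib (22), 2 to 24 for the interaction (16), 24 to 112 for the gefitinib main effect (80) and 1 to 37 for the luteolin main effect (31). The 75th percentile over all miRNAs could not be used, as it fell on the value of an undetected miRNA, 0.1, on 5 of 8 arrays.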
